A study of Arabidopsis thaliana with 22 samples.

Results

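Histone acetylation was followed at 10 genes of cellulose synthesis in dark-grown Arabidopsis seedlings. The genes were taken as named loci out of 27444 protein-coding genes. CESA1, CESA2, CESA3, CESA5, CESA6 and CESA9 are the 6 cellulose synthases of the primary wall, CESA4, CESA7 and CESA8 are the 3 of the secondary wall, and COB is a partner of primary wall synthesis. For each gene, every peak that overlapped its span or 2 kb on either side was collected (70 of 105488 peaks), and peaks with the summit, the base of highest enrichment, inside the gene were counted apart (40 of the 70).

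Cellulose is made at the plasma membrane by complexes of different CESA proteins. In the primary wall, which is laid down while cells expand, the complex holds CESA1, CESA3 and a CESA6-related subunit, a place that CESA2, CESA5 and CESA9 can also fill. The secondary wall complex holds CESA4, CESA7 and CESA8 and works in xylem vessels and fibres after growth has stopped. Acetylation of histone H3 at lysines 9, 14 and 23 (H3K9Ac, H3K14Ac and H3K23Ac) is usually found around the start of transcribed genes, and ethylene shortens the dark-grown hypocotyl, an organ that grows by expansion of primary walls.

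Seedlings were grown in the dark for 3 days before chromatin was taken from the mutant ein2-5, which carries a loss-of-function allele of the ethylene signalling gene EIN2, and from the wild type Col-0. They were given 10 p.p.m. ethylene or air for 4 h. H3K14Ac and H3K23Ac were measured in both genotypes and H3K9Ac in Col-0 only, in 18 ChIP libraries with 4 IgG control libraries. Libraries of 1 condition were pooled by the authors before peaks were called, which gave 10 peak lists, 1 for each mark, genotype and treatment. The 2 Col-0 H3K14Ac lists rest on 1 library each and the others on 2. The lists therefore hold no replicates, no test between treatments, genotypes or gene classes was possible, and every difference below is a description of these lists. The lists are based on 16981322 to 37674460 ChIP tags and 2438541 to 13683768 control tags, and hold 3011 to 18003 peaks. The enrichment at a summit was scaled by the authors to each list's own control. At the genome-wide background the smallest fold that could be called was 1.5 in the ein2-5 air lists, 1.58 in the Col-0 ethylene lists, 1.83 in the ein2-5 ethylene lists and 2.1 in the Col-0 air lists. A fold from one list is therefore not comparable with a fold from another, and each fold below is given with its rank, the percent of the peaks of its own list with the same or a lower fold. In whole seedlings, fewer cells with a mark and less of the mark per cell cannot be told apart, and neither the tissue nor the genotype could be checked from peaks.

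Most summits inside the primary wall genes and COB lay close to the start codon. The bases below are those around the start codon of 4 of these genes, and show how closely the summits of different lists came together. They were read from the TAIR10 chromosomes in the direction of transcription, and each stretch begins 15 bases before the start codon. Capitals mark bases that were a summit in at least 1 list.
CESA1, chr4:15646338-15646403, minus strand: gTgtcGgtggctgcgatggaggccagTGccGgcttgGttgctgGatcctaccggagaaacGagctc
CESA2, chr4:18297063-18297128, plus strand: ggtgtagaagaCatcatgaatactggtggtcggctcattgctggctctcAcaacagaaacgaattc
CESA6, chr5:25881540-25881605, plus strand: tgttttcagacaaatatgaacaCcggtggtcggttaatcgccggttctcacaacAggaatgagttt
COB, chr5:24513882-24513947, minus strand: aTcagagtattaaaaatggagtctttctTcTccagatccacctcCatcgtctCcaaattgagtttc
In CESA1 these 66 bases held a summit in 8 lists at 8 different bases, and in COB they held one in 5 lists. In CESA2 and CESA6 they held a summit in 2 lists each. CESA5, which is not shown, had 1 summit in this stretch, 9 bases before the start codon, in ein2-5 H3K23Ac in air.

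**Figure D1:**
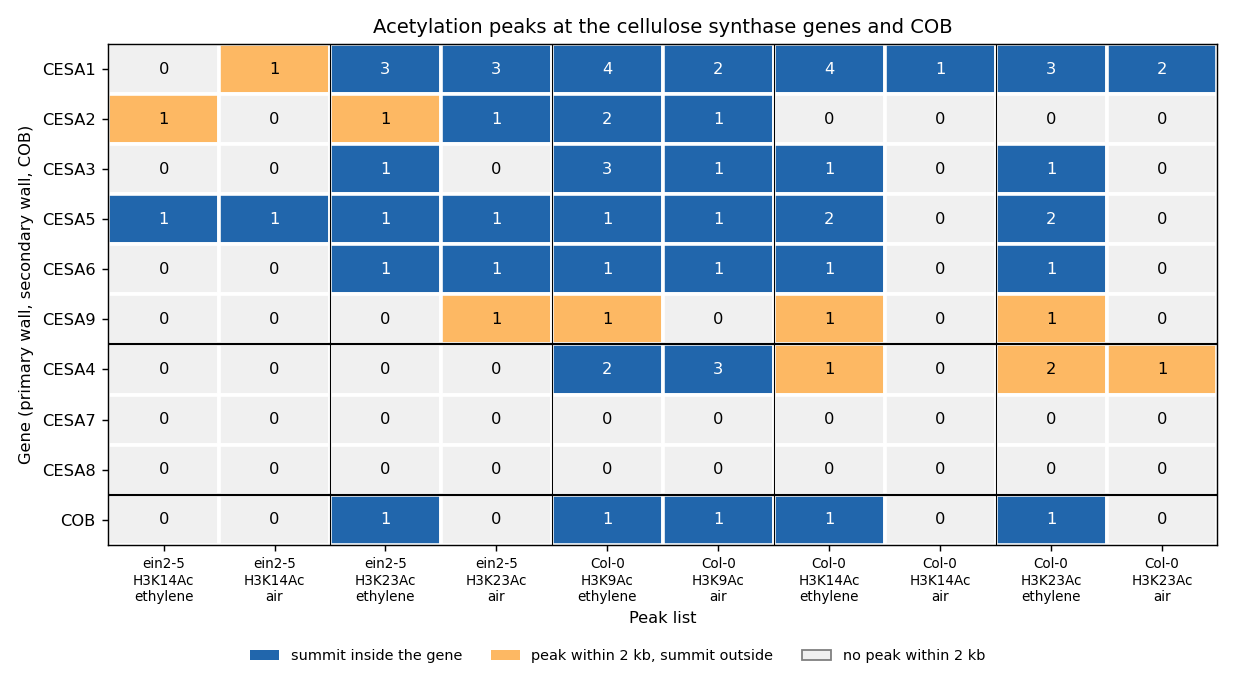
Peaks at each gene (rows) in each list (columns). The number is the count of peaks within 2 kb, blue marks a summit inside the gene, orange a peak within 2 kb whose summit lies outside, and grey no peak. CESA7 and CESA8 have 0 peaks in all 10 lists, whereas CESA1 and CESA5 have a summit inside in 8 lists each.

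Over the 10 lists, a primary wall gene had a summit inside in 30 of 60 pairs of gene and list (50%), and a secondary wall gene in 2 of 30 pairs (6.67%). The same share was 33.2% over all protein-coding genes. All CESA genes are long, and among the 7014 genes of at least 3000 bp the share was 41.4%. With the 2 kb on either side included, primary wall genes had a peak in 37 of 60 pairs (61.7%) and secondary wall genes in 5 of 30 (16.7%), against 53.4% of all genes and 59.9% of the long ones. The number of peaks was 56 at the 6 primary wall genes, 9 at the 3 secondary wall genes and 5 at COB. The grid of genes and lists shows that the members of a class differed among themselves. CESA1 and CESA5 had a summit inside in 8 lists each, CESA6 in 6 and CESA3 in 5, while CESA2 had one in 3 and CESA9 in none, next to CESA4 with 2 and CESA7 and CESA8 with none.

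The primary wall share depended on how peaks and genes were defined. With a fold of at least 2 it was 20 of 60 pairs (33.3%), against 22.3% of all genes and 27.2% of the long genes. With all controls brought to the same depth it was 19 of 60 (31.7%), against 22.9% and 27.7%, and with lists of equal length 21 of 60 (35.0%), against 25.2% and 30.7%. With the gene taken from start codon to stop codon, a setting chosen after seeing the data, it was 13 of 60 (21.7%), against 27.8% of all genes and 30.8% of the long genes, so that it was then below the background. The secondary wall count stayed at 1 or 2 of 30 pairs under these 4 settings.

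The 40 summits inside these genes sat near the gene start. Of these, 35 (87.5%) lay within 1000 bp of it, at 312 to 886 bp with a median of 442 bp. In all genes 84.4% of the summits inside lay within 1000 bp, and 78.2% in the long genes, so the position as such was that of most genes. The 33 summits inside primary wall genes comprised 14 in the 5′ UTR, 11 in coding exons, 7 in introns and 1 in the 3′ UTR. The 5 summits farther than 1000 bp from the start belonged to CESA1, CESA2, CESA4 and CESA5. All 30 summits outside the members lay inside another protein-coding gene, so that no summit was in the intergenic space of this family.

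**Figure D2:**
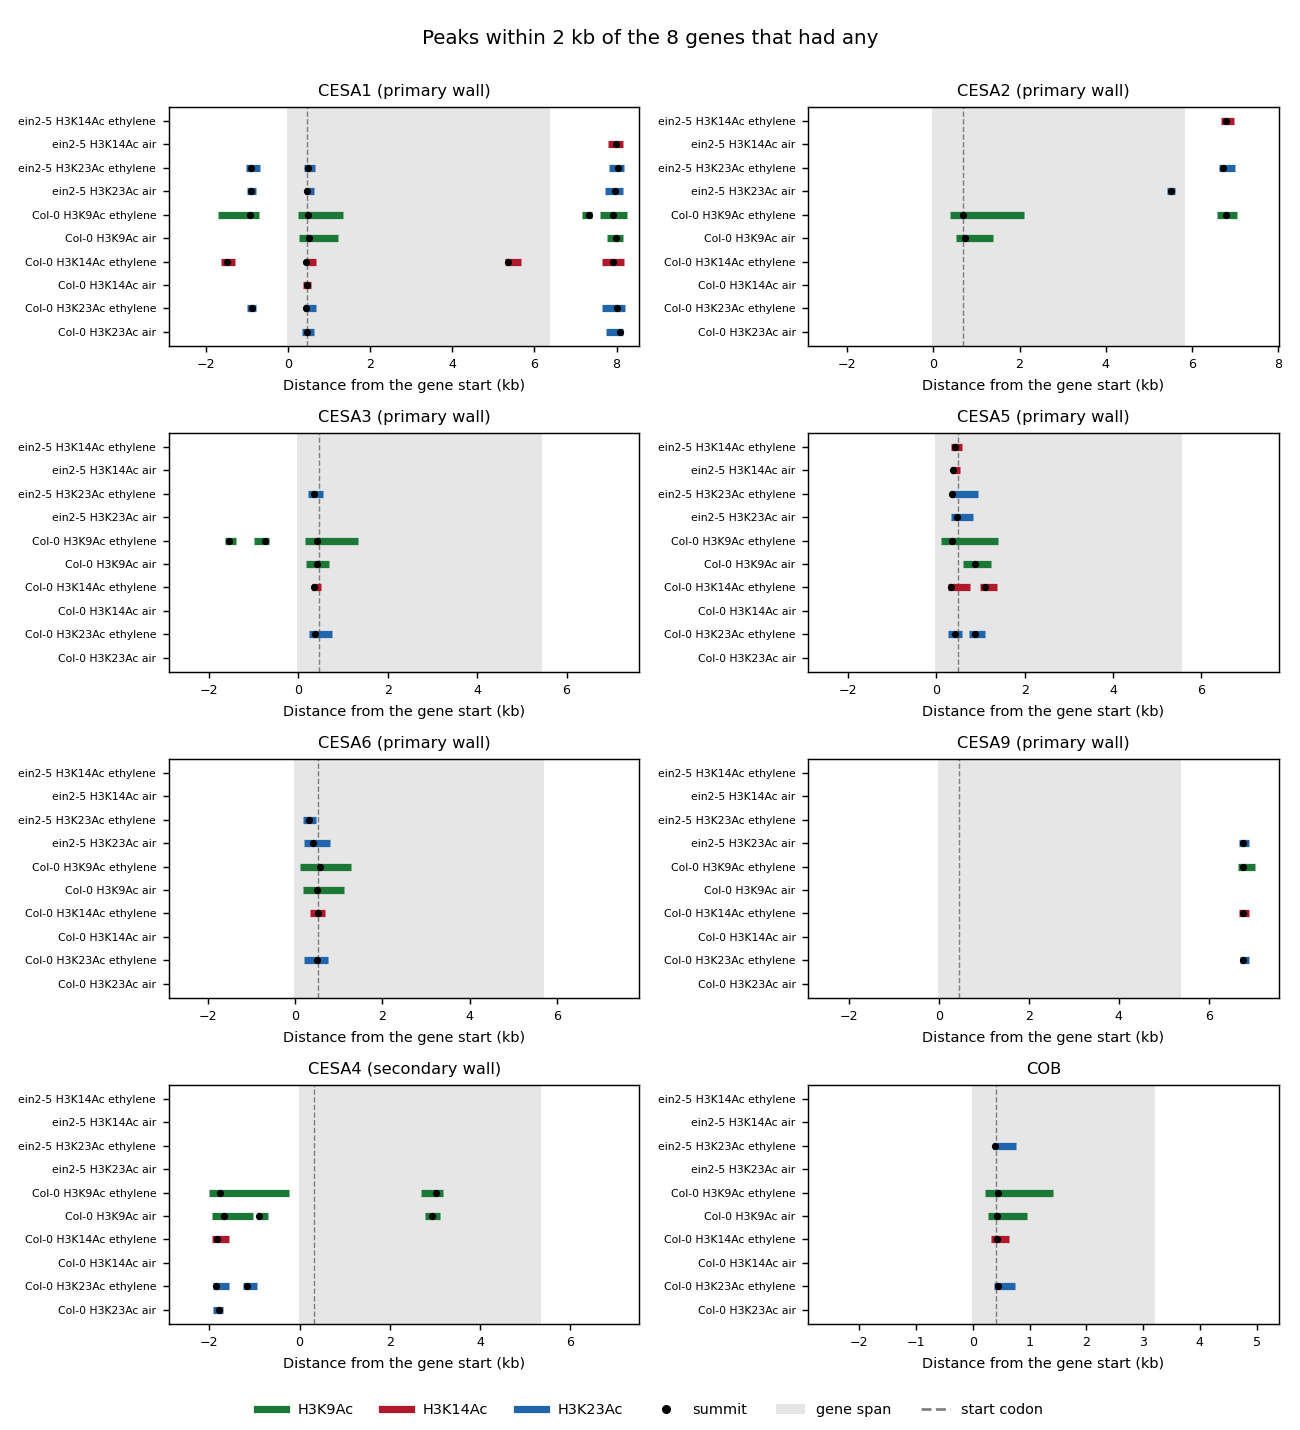
Position of each peak (bar) and its summit (black dot) in kb from the gene start, in the direction of transcription, for the 8 genes with any peak within 2 kb. Rows are lists, the grey area is the gene span and the dashed line the start codon. Most summits inside primary wall genes and COB stand at the start codon, those inside CESA4 stand near 3 kb, and those of CESA9 lie beyond its 3′ end.

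CESA1 (AT4G32410, chr4:15640490-15646844, minus strand) encodes a subunit that the primary wall complex cannot do without. It had a summit inside in 8 of 10 lists and 23 peaks within 2 kb, the highest number of the family. In ein2-5, its H3K23Ac peak at the start codon had a fold enrichment of 2.46 with ethylene and 1.66 in air, at ranks of 72.3% and 19.2%. In Col-0 the H3K9Ac fold was 2.71 with ethylene and 4.29 in air, at ranks of 54.6% and 98.1%. The Col-0 H3K14Ac fold at the start was 1.46 with ethylene and 2.54 in air, at ranks of 1.07% and 51.1%. The Col-0 H3K23Ac fold was 1.58 with ethylene and 3.08 in air, at ranks of 5.80% and 84.3%. CESA1 was the only one of the 10 genes with a summit inside in the Col-0 H3K14Ac air list and in the Col-0 H3K23Ac air list. With a q under 0.05, the H3K14Ac summit at the start was lost both with ethylene and in air. With equal control depths, the start summits of Col-0 H3K14Ac and Col-0 H3K23Ac with ethylene and of ein2-5 H3K23Ac in air were lost. CESA1 had no summit inside in either ein2-5 H3K14Ac list.

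The start summits of CESA1 spanned 59 bp over 3 marks and 8 lists, from 14 bases before the start codon to 45 bases after it. A further H3K14Ac summit appeared in Col-0 with ethylene in the last exon (exon 14), 5353 bp from the gene start, with a fold of 2.02 (rank 52.2%). The 101 coding bases around this summit are given with the summit base in capitals, because the same part of CESA7 is the closest other sequence of the genome.
CESA1 last exon, chr4:15641441-15641541, minus strand: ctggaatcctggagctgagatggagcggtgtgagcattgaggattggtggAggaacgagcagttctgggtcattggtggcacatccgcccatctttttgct
Of these 101 bases, 84 were the same in CESA7 at chr5:5737285-5737385, where no list had a peak. This CESA1 summit was not kept when the depths of the controls were made equal. The other 14 peaks near CESA1 had their summits in the neighbours SHS1, downstream, and AT4G32420, upstream.

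CESA3 (AT5G05170, chr5:1530132-1535558, minus strand) encodes another subunit that the primary wall complex requires. It had a summit inside in 5 lists, 355 to 419 bp from the gene start, all in the first intron, which lies before the start codon. In ein2-5 the H3K23Ac fold was 1.84 with ethylene (rank 13.5%), and no peak was called in air. In Col-0 the H3K9Ac fold was 3.72 with ethylene and 3.71 in air, at ranks of 90.0% and 92.0% in their lists. The Col-0 ethylene lists also held CESA3 for H3K14Ac (fold 1.56, rank 4.57%) and for H3K23Ac (fold 1.90, rank 39.3%), and the Col-0 air lists did not. The H3K14Ac peak with ethylene was lost with a q under 0.05. The H3K14Ac peak and both H3K23Ac peaks were lost with equal control depths.

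CESA6 (AT5G64740, chr5:25881033-25886728, plus strand) encodes the main subunit of the variable place in dark-grown hypocotyls. It had 6 peaks within 2 kb in 6 lists, each with its summit inside at 312 to 561 bp from the gene start. The ein2-5 H3K23Ac fold was 2.41 with ethylene and 1.93 in air, at ranks of 68.8% and 59.0%. The Col-0 H3K9Ac fold was 3.69 with ethylene and 3.45 in air, at ranks of 89.4% and 86.5%. With ethylene, Col-0 had a fold of 2.07 for H3K14Ac (rank 58.2%) and 1.71 for H3K23Ac (rank 16.7%), and neither mark had a peak in air. The Col-0 H3K23Ac peak with ethylene and the ein2-5 H3K23Ac peak in air were lost with equal control depths. The next peaks outside the window were at least 4526 bp away.

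CESA5 (AT5G09870, chr5:3072870-3078416, plus strand) can stand in for CESA6 and is also used in the seed coat. It had a summit inside in 8 lists, with 10 summits in all and none outside, and was the only member with a summit inside in the ein2-5 H3K14Ac lists. In ein2-5 the H3K14Ac fold was 2.42 with ethylene and 1.85 in air, at ranks of 72.2% and 49.5%. The ein2-5 H3K23Ac fold was 2.20 with ethylene and 1.96 in air, at ranks of 49.2% and 62.7%. Both ein2-5 air peaks were lost with equal control depths. In Col-0 the H3K9Ac fold was 3.84 with ethylene and 2.45 in air, at ranks of 92.0% and 37.3%.

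The 2 Col-0 lists that did not hold CESA5 were those of H3K14Ac and H3K23Ac in air. With ethylene, each of these marks had a pair of summits in CESA5. For H3K14Ac they stood 341 and 1095 bp from the gene start with folds of 2.40 and 2.30 (ranks 82.3% and 76.7%), and for H3K23Ac 420 and 866 bp from it with folds of 2.07 and 1.68 (ranks 58.4% and 13.2%). The last of these 4 was lost with a q under 0.05 and also with equal control depths. The H3K9Ac summit stood at 348 bp with ethylene and at 886 bp in air.

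CESA2 (AT4G39350, chr4:18296388-18302192, plus strand), a relative of CESA6, had a summit inside in 3 lists. For Col-0 H3K9Ac the fold was 3.39 with ethylene and 2.04 in air, 4 bases before and 34 bases after the start of the start codon, at ranks of 82.5% and 13.3%. The ethylene peak covered 1725 bp and the air peak 846 bp. In ein2-5 a H3K23Ac summit was called in air at the other end of the gene, in the 3′ UTR 5510 bp from the start, with a fold of 1.60 (rank 12.7%). This peak was lost with a fold of at least 2, with lists of equal length and with equal control depths. No Col-0 H3K14Ac or H3K23Ac list had a peak within 2 kb of CESA2. The other 3 peaks had their summits in AT4G39360 downstream.

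CESA9 (AT2G21770, chr2:9284391-9289744, plus strand), a relative of CESA6 known from the seed coat, had no summit inside in any list. Its 4 peaks within 2 kb, in ein2-5 H3K23Ac in air and in the 3 Col-0 ethylene lists, all had their summits in AT2G21780, 1398 to 1419 bp beyond the 3′ end of CESA9. The fold was 1.97 in ein2-5 (rank 62.8%). In Col-0 it was 2.82 for H3K9Ac (rank 60.3%), 2.28 for H3K14Ac (rank 75.5%) and 2.27 for H3K23Ac (rank 75.4%). CESA9 therefore had no summit of its own in these lists, unlike the other 5 primary wall genes.

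CESA4 (AT5G44030, chr5:17714390-17719723, plus strand) was the only secondary wall gene with a summit inside, in Col-0 H3K9Ac with ethylene and in air. The fold was 1.92 with ethylene and 2.53 in air, at ranks of 14.2% and 42.3%. These summits were 3035 and 2932 bp from the gene start and thus not at its start but in coding exon 9. The 101 coding bases around the ethylene summit are shown with the summit base in capitals, since this exon held the only peaks called inside a secondary wall gene.
CESA4 with ethylene, chr5:17717375-17717475, plus strand: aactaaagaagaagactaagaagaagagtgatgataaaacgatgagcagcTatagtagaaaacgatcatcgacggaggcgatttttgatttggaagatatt
The closest other stretch of the genome shared 56 of the 101 bases. The ethylene peak was lost in 3 of the alternative settings (a fold of at least 2, lists of equal length, and equal control depth), and the air peak was kept in all of them. The other 7 peaks near CESA4 had their summits in AT5G44020, which ends within CESA4 on its 5′ side. CESA4 had no peak within 2 kb in any ein2-5 list.

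CESA7 (AT5G17420, chr5:5736630-5741500, minus strand) and CESA8 (AT4G18780, chr4:10312624-10316886, minus strand) encode the other 2 subunits of the secondary wall complex. Neither had a peak within 2 kb in any of the 10 lists. Of all genes, 14.6% had no peak within 2 kb in any list, and of the long genes 7.17%. The nearest peak to CESA7 was 5591 to 9988 bp away over the 10 lists, and the nearest to CESA8 was 3160 to 4203 bp away, mostly in RLP51. Over all members, the farthest peak inside the 2 kb window was 1690 bp from CESA4, and the nearest outside the window was 2235 bp from CESA5. In CESA7 and CESA8 with 2 kb on either side, 100% of the windows of 31 bases occurred once on chromosomes 1 to 5, against 97.96 to 99.9% at the primary wall genes.

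COB (AT5G60920, chr5:24511152-24514338, minus strand) encodes a protein anchored at the cell surface that orients cellulose deposition in expanding cells. It had a summit inside in 5 lists, the same 5 as CESA3, at 392 to 443 bp from the gene start. The ein2-5 H3K23Ac fold was 2.08 with ethylene (rank 35.6%), and no peak was called in air. The Col-0 H3K9Ac fold was 3.68 with ethylene and 2.74 in air, at ranks of 89.2% and 55.6%. With ethylene, Col-0 had a fold of 1.79 for H3K14Ac (rank 24.3%) and 1.77 for H3K23Ac (rank 23.3%), and no peak of either mark in air. Both of these ethylene peaks were lost with equal control depths. All 5 peaks at COB had their summit inside, within a stretch of 51 bp.

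**Figure D3:**
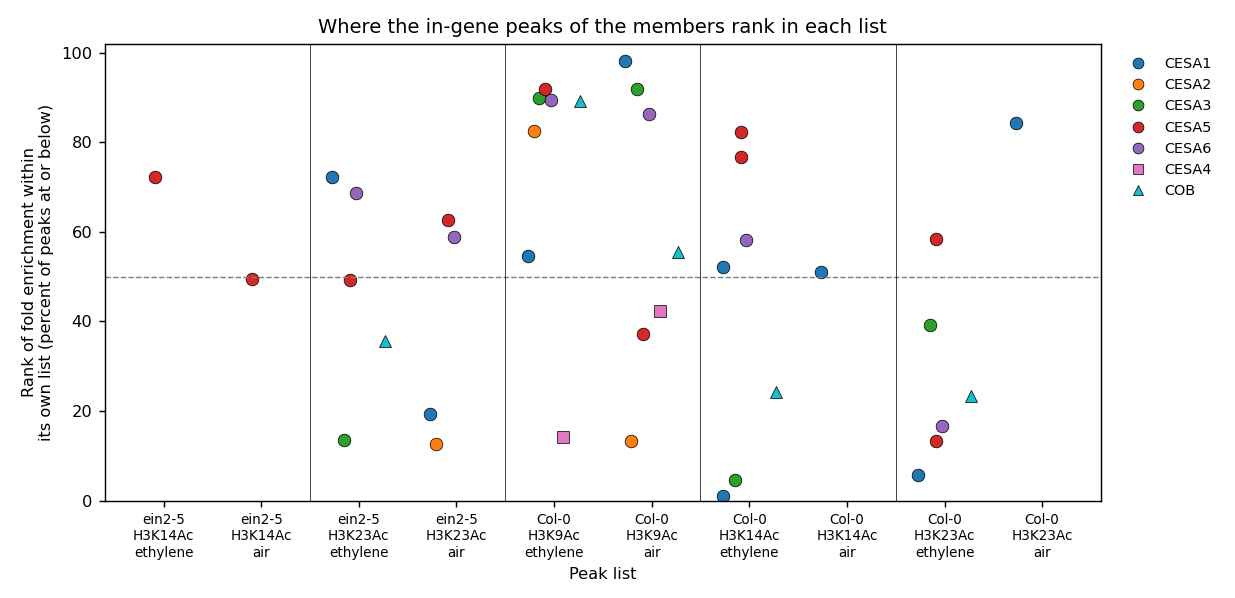
Rank of the fold enrichment of each in-gene peak within its own list (y axis, percent of the peaks of that list with the same or a lower fold), by list (x axis), with 1 symbol for each summit. In Col-0 H3K9Ac with ethylene 5 of the 7 summits rank above 80%, and in Col-0 H3K23Ac with ethylene 5 of the 6 summits rank below 40%.

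The lists differ in length, so the ranks of these peaks are given list by list and not compared between marks. In the Col-0 H3K9Ac ethylene list, the 7 summits inside members had a median rank of 89.2% by fold enrichment (14.2 to 92.0%). In the Col-0 H3K9Ac air list the 7 summits had a median rank of 55.6% (13.3 to 98.1%). The 7 Col-0 H3K14Ac summits with ethylene had a median rank of 52.2% (1.07 to 82.3%), and the 6 Col-0 H3K23Ac summits with ethylene one of 20% (5.80 to 58.4%). In ein2-5, the 5 H3K23Ac summits with ethylene had a median rank of 49.2%, and the 4 in air one of 39.1%. The plot of ranks shows that CESA3, CESA5, CESA6 and COB were among the higher H3K9Ac peaks with ethylene, while CESA4 was the lowest of the 7.

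H3K9Ac summits in Col-0 were called inside the same 7 genes with ethylene and in air, namely CESA1, CESA2, CESA3, CESA5, CESA6, CESA4 and COB. Of the primary wall genes, 5 of 6 (83.3%) had a summit inside with ethylene, and of the secondary wall genes 1 of 3 (33.3%), against 56.1% of all genes and 73.1% of the long genes. In air the counts were again 5 of 6 and 1 of 3, against 36.2% of all genes and 46.5% of the long genes. Within 2 kb, 6 primary wall genes had a peak with ethylene and 5 in air, against 77.3% and 57.9% of all genes. No member had a summit with ethylene and none in air, or the reverse, where 20.1% and 0.142% of all genes did.

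H3K14Ac summits in ein2-5 were called inside 1 member. CESA5 had a summit inside, with ethylene and in air, so that the primary wall count was 1 of 6 (16.7%) in both lists. The background was 27% of all genes and 34.3% of the long genes with ethylene, and 29.6% and 36.8% in air, so 1 gene of 6 was not far from it. Within 2 kb, 2 primary wall genes had a peak in each list (CESA2 and CESA5 with ethylene, CESA1 and CESA5 in air), against 46.8% of all genes with ethylene and 51.2% in air. No member had a summit in only 1 of these lists. Of all genes, 8.03% had a summit with ethylene and not in air in the lists as deposited, and 10.6% had the reverse. At equal control depth CESA5 was found with ethylene and not in air. At that depth 22.4% of all genes had a summit inside with ethylene and 7.99% in air.

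H3K14Ac in Col-0 differed between the treatments. With ethylene, CESA1, CESA3, CESA5 and CESA6 had a summit inside (4 of 6, or 66.7%), against 43.8% of all genes and 55.8% of the long genes. In air CESA1 alone did (16.7%), against 10.6% of all genes. Within 2 kb the primary wall counts were 5 with ethylene and 1 in air, against 67.3% and 20.9% of all genes. A summit with ethylene and not in air was found in 4 of the 10 members, CESA3, CESA5, CESA6 and COB, against 33.7% of all genes and 44.6% of the long genes, so this share was close to the background. None had the reverse, nor did more than 0.455% of all genes. The control of the Col-0 air lists was the shallowest of the 4, with 2438541 tags against 10479732 with ethylene. With a q under 0.05 the 4 genes were CESA1, CESA5, CESA6 and COB. CESA1 was then among them only through its last-exon summit, since its start summit was lost both with ethylene and in air. With both controls scaled to the same depth CESA5 and CESA6 remained, CESA1 had a summit in air and not with ethylene, and with lists of equal length none of the 4 remained.

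H3K23Ac in ein2-5 was found at more members than H3K14Ac. With ethylene CESA1, CESA3, CESA5 and CESA6 had a summit inside (4 of 6), against 35.4% of all genes and 45.3% of the long genes. In air CESA1, CESA2, CESA5 and CESA6 did, again 4 of 6, against 37.2% of all genes and 45.6% of the long genes. Within 2 kb 5 primary wall genes had a peak in each list, against 57.8% of all genes with ethylene and 60.9% in air. With a fold of at least 2, or at equal control depth, the air count was 0 of 6, where 13.9% and 11.6% of all genes had a summit inside, and the ethylene count was 3 of 6. CESA3 and COB had a summit with ethylene and not in air, against 7.89% of all genes and 11.5% of the long genes. CESA2 had the reverse, against 9.69% of all genes and 11.8% of the long genes. The control of these lists held 4333059 tags with ethylene and 13683768 in air. With a fold of at least 2 and at equal control depth, the members with a summit only with ethylene were CESA1, CESA5, CESA6 and COB, and CESA3 was not among them. The 7.89% and 11.5% do not apply to these settings, for which the ethylene-only shares were not computed. With a fold of at least 2, 26.4% of all genes had a summit inside with ethylene and 13.9% in air. At equal control depth the shares were 30.4% and 11.6%.

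H3K23Ac in Col-0 was also found at more members with ethylene than in air. With ethylene CESA1, CESA3, CESA5 and CESA6 had a summit inside (4 of 6), against 39.3% of all genes and 46.7% of the long genes. In air CESA1 did (1 of 6), against 17.0% of all genes. Within 2 kb the primary wall counts were 5 with ethylene and 1 in air, against 62.5% and 31.5% of all genes. CESA3, CESA5, CESA6 and COB had a summit with ethylene and not in air, against 23.8% of all genes and 30.5% of the long genes, and none had the reverse, against 1.59% of all genes. The lists of the 2 marks share their controls, so the 2 counts are not independent. The 4 genes were also those of H3K14Ac in the lists as deposited, but with a q under 0.05 CESA3 remained for H3K23Ac and not for H3K14Ac. At equal control depth only CESA5 remained and CESA1 had a summit in air and not with ethylene, and with lists of equal length none of the 4 remained. No secondary wall gene had a summit inside in any H3K14Ac or H3K23Ac list of either genotype.

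**Figure D4:**
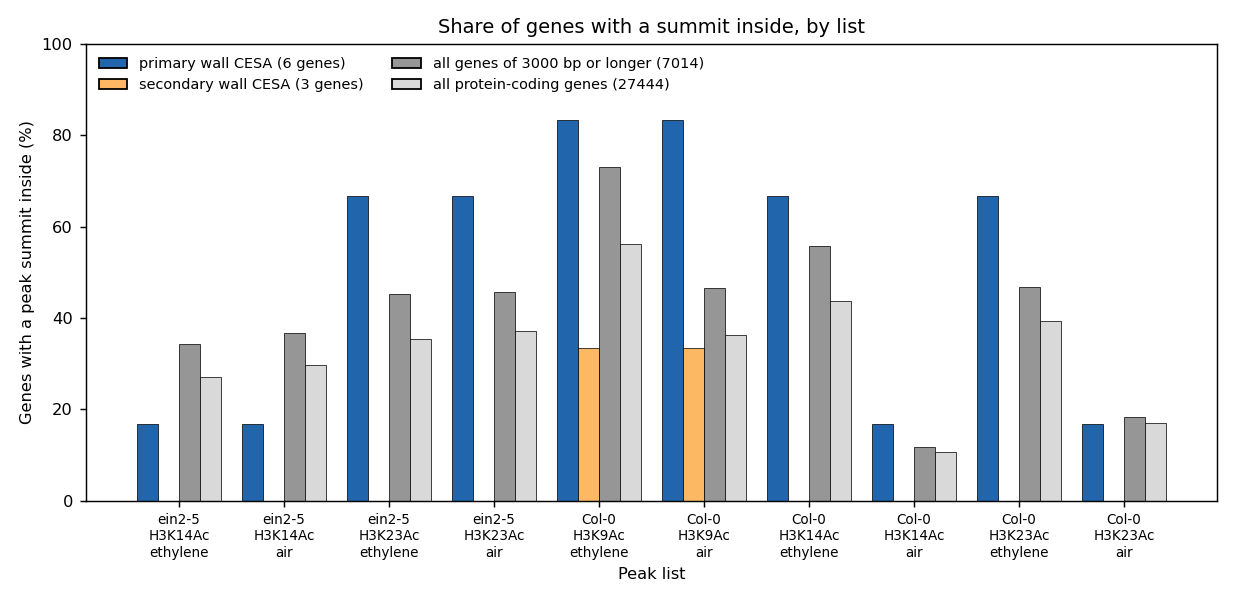
Share of genes with a summit inside (y axis, %) in each list (x axis), for the 6 primary wall genes, the 3 secondary wall genes, all genes of at least 3000 bp and all protein-coding genes. In 8 of the 10 lists the secondary wall bar is at 0, and in both ein2-5 H3K14Ac lists the primary wall bar, 1 gene of 6, is the lowest of those above 0.

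By summits inside, a wider set of genes showed a similar division. These genes were chosen with earlier results of these data known, and the alternative settings were not applied to them. Of 11 further genes of primary wall or general cellulose synthesis, 63 of 110 pairs of gene and list (57.3%) had a summit inside. Of 11 genes of secondary wall formation, 4 of 110 pairs (3.64%) had one. The share was 33.2% over all genes and 41.4% over the long genes. The genes of the second set are 783 to 3290 bp long, and over the 19050 genes of that length range the share was 34.6%. Within 2 kb, the lists had a peak at 3 to 7 of the 11 genes of the second set (27.3 to 63.6%). The share of all genes was 20.9 to 77.3% over the lists, so by this measure the second set was close to all genes. In the first set, 7 of 11 genes had a summit in at least 5 lists, against 36.2% of all genes and 45.4% of the long genes. KOB1, which is needed for cellulose synthesis in elongating cells, had one in 10 lists, as did AT1G45688. KOR1, a membrane-bound endoglucanase that acts with the synthase complex, had one in 9 lists, AT3G57420 in 8, AT2G41770 in 7, CTL1, a chitinase-like protein, in 6, and THE1, a receptor kinase that senses the state of the wall, in 5. CESA10, the closest relative of CESA1, had none and no peak within 2 kb in any list. CSI1 and CSI3, which tie the complex to microtubules, had a summit in 3 lists each.

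In the secondary wall set, 8 of 11 genes had a summit in no list, against 35.9% of all genes and 34.3% of those in the same length range. Among the 8 were COBL4, the secondary wall relative of COB, and the transcription factors MYB46, MYB83, NST3, VND6 and VND7, which switch on the secondary wall programme. FLA11 and TED6 each had a summit in 1 list, Col-0 H3K14Ac with ethylene. NST1, another such factor, had a summit in 2 lists, ein2-5 H3K14Ac in air and ein2-5 H3K23Ac in air. MYB46 and VND7 had a peak within 2 kb in all 10 lists with no summit inside in any, so that a peak nearby did not imply a summit inside. Whether these peaks reached into the 2 genes was not examined.

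**Figure D5:**
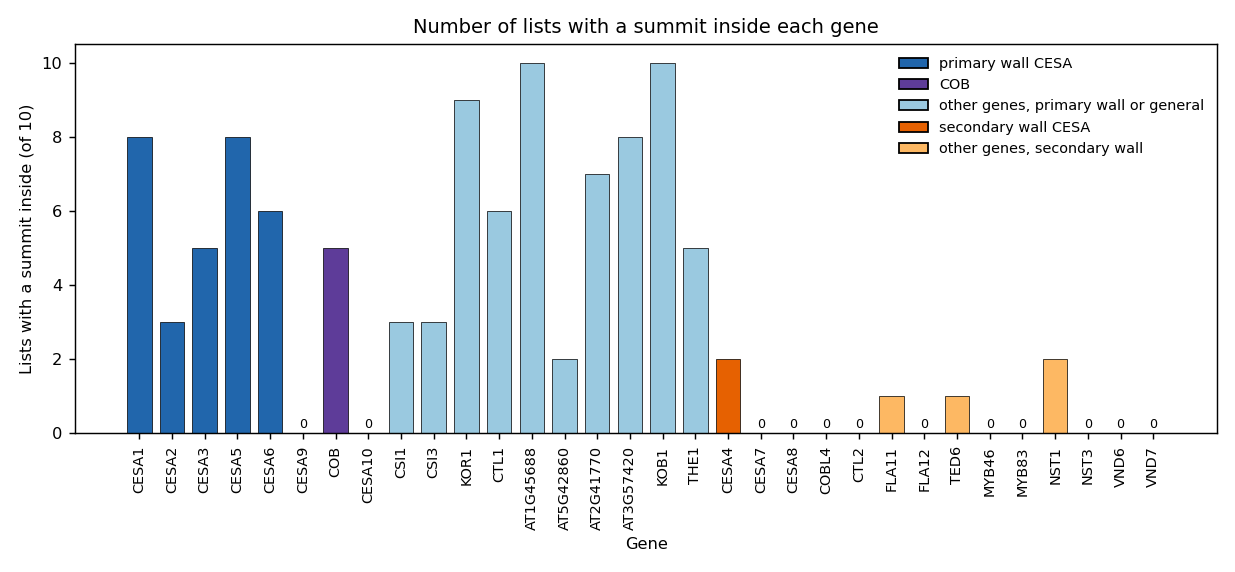
Number of lists, of 10, with a summit inside each gene (y axis), for the members and the 22 further genes (x axis), coloured by class. Of the primary wall or general genes only CESA9 and CESA10 are at 0, and of the secondary wall genes none exceeds 2.

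The 250 bases before the gene start were rarely overlapped by a peak in any gene. A peak overlapped this stretch for 1 of the 10 members, CESA4, in 1 list (Col-0 H3K9Ac with ethylene), with its summit in the neighbour AT5G44020. Of all genes 8.69% had such a peak in at least 1 list. The stretch is shown for CESA5, with a summit downstream of it in 8 lists, and for CESA8, with none. Capitals mark matches to the element bound by the secondary wall factors MYB46 and MYB83 (ACCNANN, in which the first N is A or T, the next A or C and the last C or T, on either strand).
CESA5 promoter, chr5:3072620-3072869, plus strand: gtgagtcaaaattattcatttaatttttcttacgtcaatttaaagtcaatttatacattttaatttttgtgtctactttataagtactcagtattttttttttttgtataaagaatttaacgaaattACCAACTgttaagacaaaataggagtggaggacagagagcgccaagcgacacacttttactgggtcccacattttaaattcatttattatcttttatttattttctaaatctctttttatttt
CESA8 promoter, chr4:10316887-10317136, minus strand: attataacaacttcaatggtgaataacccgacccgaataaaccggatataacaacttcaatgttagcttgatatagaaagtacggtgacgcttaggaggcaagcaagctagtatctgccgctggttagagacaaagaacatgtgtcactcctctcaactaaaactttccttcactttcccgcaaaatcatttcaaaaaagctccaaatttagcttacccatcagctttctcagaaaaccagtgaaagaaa
The element was present once in CESA1, CESA5, CESA9, CESA4 and COB and not in the other members, against 29.4% of all promoters of this length. The element bound by the ethylene factor EIN3 and its tobacco relative TEIL (ANGNANCT, in which the first and last N are C or T and the middle N is A or T, on either strand) was in none of the 10, against 5.93% of all promoters. A match or its absence describes the letters only. The members' promoters had a GC content of 25.6 to 39.2%.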

How the data were processed

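The 18 ChIP and 4 IgG libraries were processed by the authors. Reads were mapped to TAIR10 with Bowtie2 2.1.0, duplicates were removed with SAMtools, libraries of 1 condition were pooled, and peaks were called with MACS2 2.1.0.20150603 against 1 IgG library (P threshold of 0.01, no fragment model, fragments of 200 bp, genome of 130000000 bp). Each deposited list gives the authors' pileup (a coverage signal at the summit), the fold enrichment over local background (a ratio), and −log10 P and −log10 q. The headers state that q was not calculated, yet the column holds values, which were used as q. The control of the Col-0 air lists held 2438541 tags, and its identity with the labelled IgG library is in doubt.

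Genes were the 27444 protein-coding genes of the RefSeq annotation of TAIR10.1, newer than TAIR10 but with the same chromosome lengths. Features refer to the transcript with the longest coding sequence. Peaks were joined to genes by an overlap of at least 1 bp within 2 kb, and by the summit. The 10 members, the 22 further genes and all settings were chosen with earlier results of these data known. All members are named. Further genes were named where a summit lay inside in at least 5 lists, and the remainder named were chosen after their values were seen. The common control depth brings pileup and background at each summit to 2438541 control tags, and keeps a peak only if its Poisson P then stays at or under 0.01. The local background was recovered from pileup and fold, and the recomputed −log10 P had a median error of at most 0.000843. No test between groups was run, since the lists hold no replicates. The overlap code was tested on simulated data. No column of other samples was present. Tables were handled with pandas 2.3.3 and numpy 2.4.6 under Python 3.11.15, Poisson values came from scipy 1.17.1, sequences were read with biopython 1.88, and figures drawn with matplotlib 3.10.9.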

Additional observations from a re-analysis of the deposited data

How the results depend on the processing

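No paired analysis was possible because each condition gave 1 list, from pooled libraries or a single one. Under the alternative settings primary wall genes kept 13 to 28 pairs of gene and list with a summit inside, against 30 in the main setting. Secondary wall genes kept 1 to 2. The settings remove or merge peaks and add none to CESA7 or CESA8, and no wider window was run. An overlap of 50% or merging within 200 bp moved no count by over 1.5 times. The share of all genes with a summit in only 1 treatment was computed for the lists as deposited and not for the alternative settings. The cause of the moves below was not tested, apart from the narrower windows and gene span, which can only lose peaks.

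With q under 0.05 CESA1 was lost from Col-0 H3K14Ac in air, which left 0 primary wall genes inside and 0 within 2 kb. With a fold of at least 2, primary wall peaks fell to 36 and COB peaks to 3. Primary wall genes with a summit inside were then 0 in both ein2-5 air lists and 1 in Col-0 H3K23Ac with ethylene, those with a peak within 2 kb were 1, 1 and 3 in these lists, and no secondary wall gene (0) was left in Col-0 H3K9Ac with ethylene. The members with a summit with ethylene and not in air were 1 for ein2-5 H3K14Ac, 4 for ein2-5 H3K23Ac, 2 for Col-0 H3K14Ac and 1 for Col-0 H3K23Ac, and the reverse was 0 for ein2-5 H3K23Ac and 1 each for Col-0 H3K9Ac and H3K23Ac.

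At the common control depth these counts were the same, except that primary wall peaks were 37, primary wall genes with a summit inside were also down to 2 in Col-0 H3K14Ac with ethylene, and a summit in air and not with ethylene was also found in 1 member for Col-0 H3K14Ac. For the other counts the common depth gave 0 primary wall genes inside in both ein2-5 air lists and 1 in Col-0 H3K23Ac with ethylene, with 1, 1 and 3 within 2 kb, 0 secondary wall genes in Col-0 H3K9Ac with ethylene, 3 COB peaks, and ethylene-only counts of 1, 4, 2 and 1 beside air-only counts of 0 for ein2-5 H3K23Ac and 1 for each Col-0 mark.

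With lists of equal length, Col-0 H3K14Ac and H3K23Ac with ethylene held 0 primary wall genes with a summit inside, and 1 and 2 with a peak within 2 kb. COB had 3 peaks. CESA4 left Col-0 H3K9Ac (0 inside) and Col-0 H3K14Ac (0 within 2 kb) with ethylene. Members with a summit only with ethylene were 0 for Col-0 H3K14Ac and H3K23Ac, and those only in air were 1 for each Col-0 mark and 0 for ein2-5 H3K23Ac.

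With a window of 1 kb, secondary wall peaks were 5, with 0 secondary wall genes in Col-0 H3K14Ac with ethylene and H3K23Ac in air, and 1 primary wall gene in ein2-5 H3K14Ac in air. With the gene span alone there were 33 primary and 2 secondary wall peaks, 1 primary wall gene in each ein2-5 H3K14Ac list, and 0 secondary wall genes in Col-0 H3K14Ac with ethylene and in both Col-0 H3K23Ac lists.

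In a setting chosen after seeing the data, the gene was taken as start codon to stop codon. Many summits lie just before the start codon, and primary wall genes with a summit inside were then 0 in both ein2-5 H3K14Ac lists, 1 in both ein2-5 H3K23Ac lists, 2 and 3 in Col-0 H3K9Ac with ethylene and in air, and 1 in Col-0 H3K23Ac with ethylene. Members only with ethylene were 0 for ein2-5 H3K23Ac, 1 for Col-0 H3K9Ac and 2 for Col-0 H3K23Ac, and only in air 0, 2 and 1.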
